A study of Mus musculus with 6 samples.

Results

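The enzymes that add and remove methyl groups on histones and DNA were followed in splenocyte cultures of OT1 mice on the C57BL/6 strain. The word enzyme also covers Eed and Suz12, which encode non-catalytic subunits of the Polycomb complex PRC2. It covers Kmt2e and Setd5 too, whose methyltransferase activity is not firmly established. The group holds 34 genes chosen by name, and all 34 are among the 23453 gene rows of the deposited count table. Of these, 29 carry the current symbol there. The other 5 stand under older symbols that RefSeq's synonyms tie to them: Mll1 is Kmt2a, Wbp7 is Kmt2b, Mll3 is Kmt2c, Mll5 is Kmt2e, and Mll2, which could name 2 genes, is Kmt2d because Kmt2b has a row of its own.

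T cells of WT OT1 mice carry a transgenic receptor for a peptide of OVA. Splenocytes received that peptide for 48 h and then medium named FCM or TCM for 8 h, with 3 libraries each. The labels do not expand either name. They title the FCM samples Vehicle, and the cell type is given as cytotoxic T lymphocytes. All groups share the strain, the genotype and the peptide. The labels name no sorting step, and none says whether replicates came from separate animals or cultures. The p-values therefore weigh differences against library-to-library spread alone, some of which may be technical.

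Methylation of a histone lysine acts by its place on the tail. Methyl groups on H3K4 mark promoters and enhancers, those on H3K36 and H3K79 mark transcribed gene bodies, and those on H3K9 and H3K27 mark silent chromatin. Writers of the SET domain class and DOT1L add these groups, and LSD1 and the JmjC demethylases remove them. On DNA, DNMT3A and DNMT3B place new 5-methylcytosine, DNMT1 copies it after replication, and TET proteins oxidise it. In activated CD8 T cells, EZH2 and DNMT3A are known for silencing memory genes as effector cells form.

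The count table and the normalized table title the same libraries oppositely: each of 6 normalized columns is a constant multiple of a count column titled for the opposite group. Group names here follow the count table, and every direction turns around under the other header. Totals ran from 17166687 to 25789381 counts per library, so that 1 count was worth 0.0388 to 0.0583 CPM (counts divided by library size) before TMM scaling, which all CPM values below carry. Replicate 1 of both groups stood apart from replicates 2 and 3 on the second principal component (8.32% of the variance), while the first (86.4%) separated the groups. T cell markers were present at 755 to 885 CPM in sum in Vehicle and 815 to 928 CPM in TCM. Of 7 CD8 and cytotoxic markers 4 rose (Gzmb, Nkg7, Ifng and Gzma), 2 fell (Cd8a and Prf1) and Cd8b1 did not pass (sum 1778 to 2062 against 4994 to 6972 CPM). Markers of other cell types were present too, and many but not all were lower in TCM. These included 2 of 3 CD4 T cell, 2 of 4 NK cell and 4 of 5 erythroid markers. All 9 neutrophil markers measured fell (sum 8587 to 13218 CPM in Vehicle, 1511 to 2609 CPM in TCM), as did 6 of 8 macrophage markers (495 to 574 against 101 to 103 CPM) and 5 of 8 B cell markers (1807 to 2164 against 1010 to 1189 CPM). No marker with a row in the table was at 0 in all libraries. Of 10 proliferation markers 7 rose and none fell by the test (sum 361 to 398 against 643 to 715 CPM). Mki67, Mcm5 and Mcm2 did not pass, with log2 changes of 0.22, -0.12 and -0.19. In Mcm2 every TCM library lay below every Vehicle library. Pcna alone averaged 121 CPM in Vehicle and 297 CPM in TCM. The part of these shifts in the enzyme results was not tested, and in bulk RNA fewer cells of a type and less RNA per cell cannot be told apart.

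Of the 34 methylation enzymes 17 had less RNA in TCM by the test, and 4, 2 genes of the Polycomb complex PRC2 among them, had more. All 34 genes passed the filter on low counts. With edgeR's quasi-likelihood test and an adjusted p under 0.05, 17 fell, 4 rose (Eed, Ezh2, Suv39h2 and Dnmt1) and 13 did not pass. Over all 12423 genes tested, 58.8% were called, 30% lower and 28.8% higher. The median log2 change of the 34 was -0.43, against -0.02 over all genes. In 17 of the 34 every TCM library lay below every Vehicle library, and in 7 every TCM library lay above, where 33.6% and 30.6% of all genes did so. At least 2-fold falls were seen in Setd2, Kmt2a, Kmt2c and Kmt2d, and an at least 2-fold rise in Eed (10.5% and 13.1% of all genes).

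**Figure D1:**
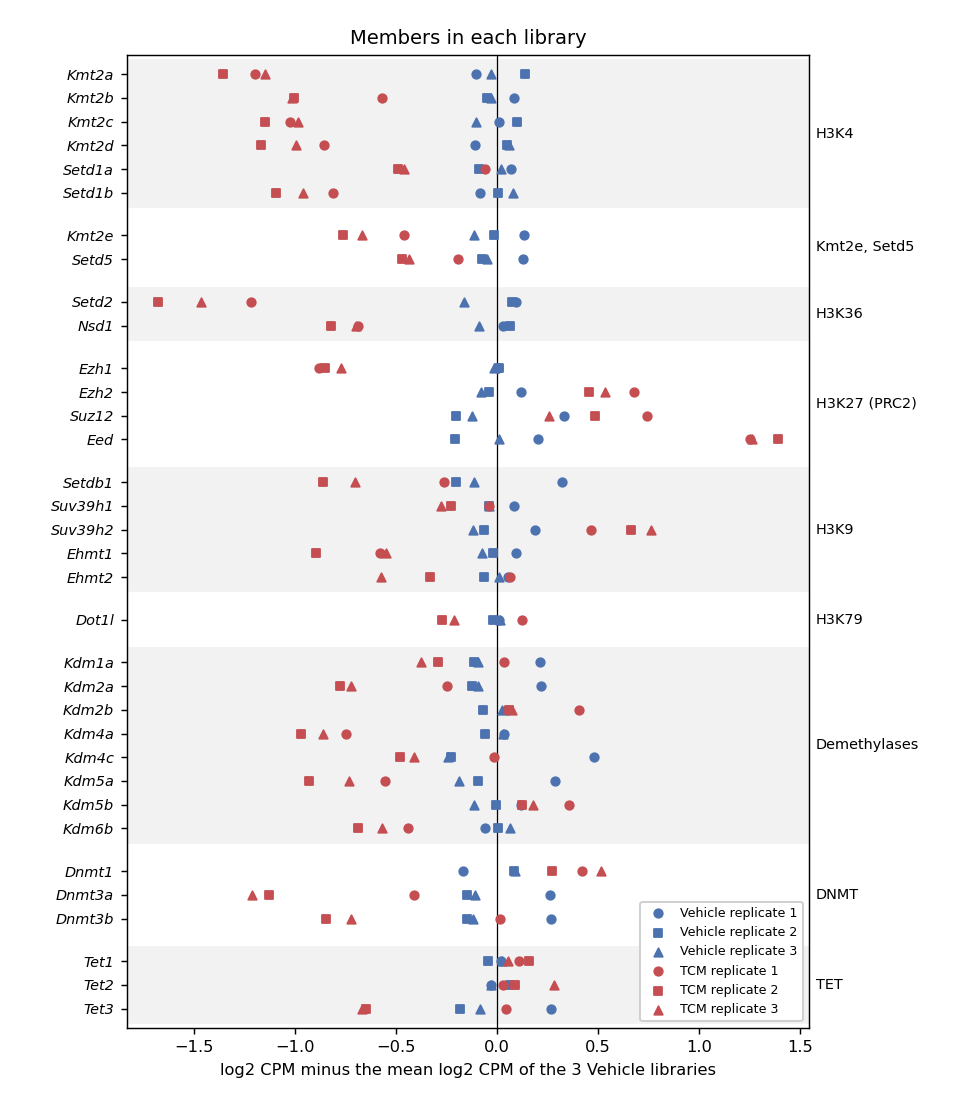
Each point is 1 library, with log2 CPM minus the mean log2 CPM of the 3 Vehicle libraries on the x axis and the 34 genes by role on the y axis (blue Vehicle, red TCM, marker shape by replicate). The H3K4 and H3K36 writers lie to the left in TCM (for Setd1a only TCM replicates 2 and 3 are clear of Vehicle), the PRC2 genes Ezh2 and Eed lie to the right, and TCM replicate 1 is the TCM library nearest to Vehicle in many genes, Dnmt3a, Tet3 and Kdm2a among them.

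These changes varied with exon length, taken as the union of the annotated exons of a gene. Across all tested genes the median log2 change ran from 0.47 in the shortest to -0.35 in the longest of 5 equal groups by exon length. The methylation enzymes are long, with a median of 6731 exon bases against 3206 over all tested genes, and 23 of the 34 lie in the longest group, which starts at 5350 bases. In that group 43.9% of all genes fell and 15.4% rose, while 15 of the 23 enzymes fell and 1 (Dnmt1) rose. The median change there was -0.63 for the enzymes and -0.35 for all genes. When the trend of each library on exon length was removed, 13 enzymes fell and 9 rose (28.8% and 28.9% of all genes), and their median was -0.20. Setd2, Kmt2a, Kmt2b, Kmt2c, Kmt2d, Setd1b, Kmt2e, Ezh1, Setdb1, Ehmt1, Kdm4a, Kdm5a and Dnmt3a were the 13 that still fell.

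The counts under other settings are best read against those of all genes. With library totals alone as scaling 1 enzyme rose and 17 fell (19% and 31.9% of all genes), with no filter 4 and 16 (22.5% and 23.2%), and in DESeq2 5 and 17 (30.9% and 28.7%). With the replicate number as a block 5 rose and 22 fell (36.3% and 37%), and with the block and the length trend removed 9 and 16 (34.9% and 35%). Leaving out Vehicle replicates 1, 2 and 3 in turn, 4, 3 and 3 rose (26.9%, 24.9% and 24.5% of all genes) and 14, 16 and 16 fell (27%, 25.3% and 25.9%). Leaving out TCM replicates 1, 2 and 3 in turn, 4 rose each time (31.9%, 22.7% and 24.9%) and 21, 13 and 14 fell (33.2%, 22.3% and 24.7%). Without both replicate 1 libraries 5 rose and 24 fell (36.3% and 37.9%).

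**Figure D2:**
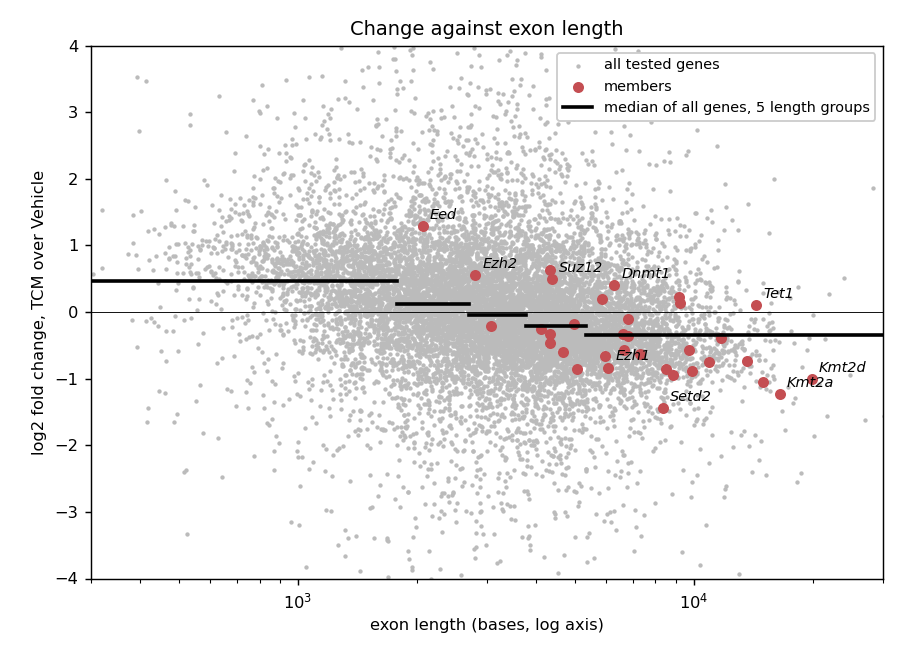
Log2 change between TCM and Vehicle (y axis) is plotted against exon length in bases (x axis, log scale) for all tested genes (grey), the 34 enzymes (red) and the median of all genes in each of 5 length groups (black bars). The medians step down from 0.47 to -0.35, and Setd2, Kmt2a and Kmt2d lie below the bar of the longest group while Tet1 lies above it. A further 253 genes lie beyond the axes.

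**Figure D3:**
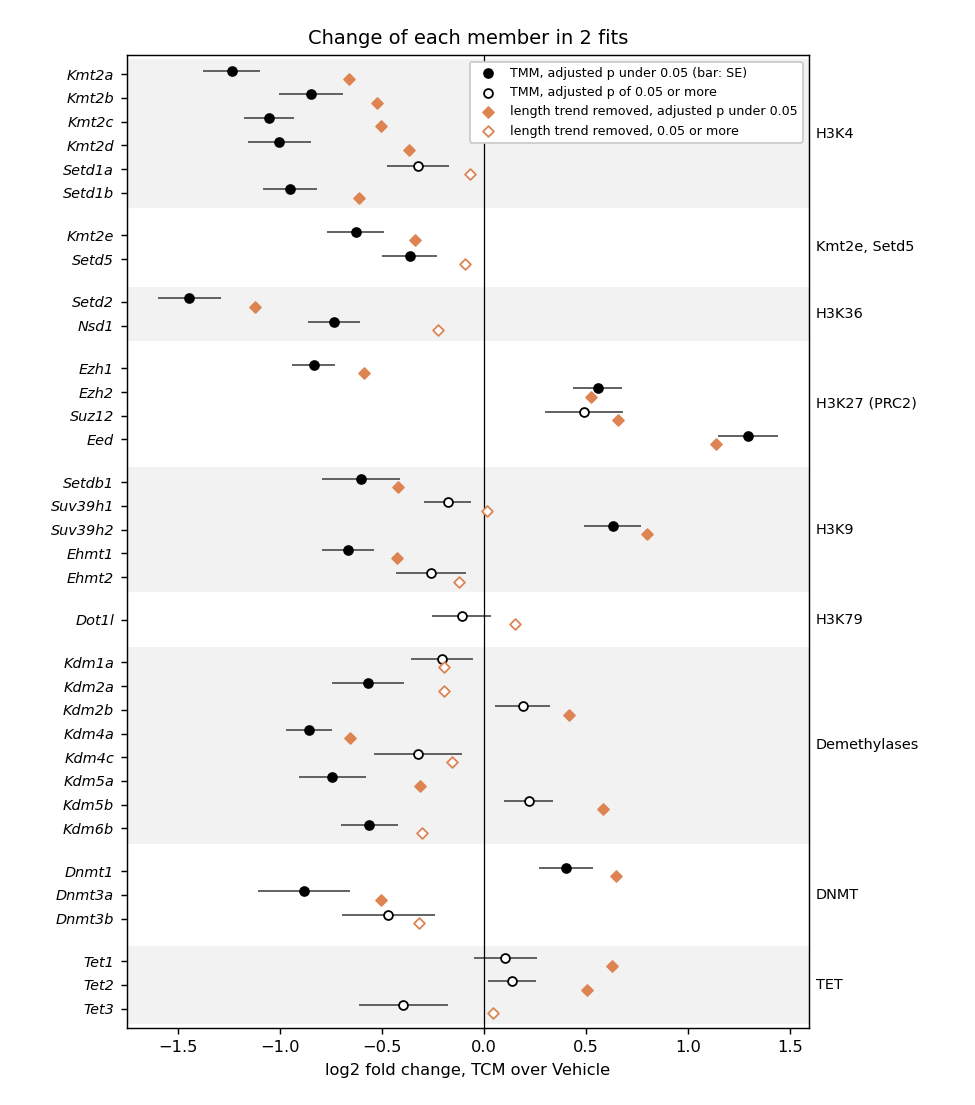
Log2 change of each enzyme (x axis) in the fit scaled by TMM (circles, bars are standard errors) and in the fit with the length trend removed (diamonds), filled where the adjusted p is under 0.05. The H3K4 writers move toward 0 without the trend, Eed and Ezh2 move from 1.29 to 1.14 and from 0.56 to 0.52, and Tet1, Tet2, Kdm2b, Kdm5b and Suz12 become filled.

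Of the H3K4 writers most fell. KMT2A (MLL1) and KMT2B methylate H3K4 at promoters, KMT2C and KMT2D mostly at enhancers, and SETD1A and SETD1B carry out most bulk trimethylation at active promoters. Of these 6 genes 5 fell, and Setd1a did not pass, where 30% of all genes fell. All 6 lie in the longest group by exon length, in which 43.9% of all genes fell. Without the length trend the same 5 still fell but by less, Kmt2a by 0.66, Kmt2c by 0.51 and Kmt2d by 0.37 on the log2 scale. Kmt2a (chromosome 9, 44803355 to 44881296 on GRCm38) had 233, 276 and 246 CPM in Vehicle replicates 1 to 3 and 109, 97.9 and 113 CPM in TCM. All TCM libraries lay far below all Vehicle libraries, and the log2 change was -1.24 ± 0.14 (SE; adjusted p = 0.000102, edgeR), a 2.36-fold fall.

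Kmt2c (chromosome 5, 25271798 to 25498783) had 118, 125 and 109 CPM in Vehicle and 57.5, 52.7 and 59.1 CPM in TCM, a log2 change of -1.05 ± 0.12. Kmt2d (chromosome 15, 98831669 to 98871204), its partner at enhancers and the member with the most reads, had 586, 656 and 659 CPM in Vehicle and 349, 281 and 318 CPM in TCM, a log2 change of -1.003 ± 0.16. In both genes the groups were clearly apart. Kmt2b and Setd1b fell by 0.85 ± 0.16 and 0.95 ± 0.13 on the log2 scale. Setd1a had 149 ± 8.26 CPM (SD, n = 3) in Vehicle and 119 ± 20.7 CPM in TCM, and TCM replicate 1 (143 CPM) lay within the Vehicle range. Its log2 change of -0.32 ± 0.15 had an adjusted p of 0.0963 in edgeR. With the replicate number as a block Setd1a passed at -0.34 (adjusted p = 0.00329 in edgeR, 4.52e-05 to 0.615 over 13 alternatives), and it also passed without TCM replicate 1, at -0.47.

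KMT2 and SETD1 enzymes work in complexes called COMPASS, built on WDR5, RBBP5, ASH2L and DPY30. Among 13 genes of COMPASS subunits 3 rose, 5 fell and 5 did not pass, with a median log2 change of -0.13, where 28.8% of all genes rose and 30% fell. The share called, as for the other gene lists described here, is to be read against the 58.8% of all genes called. Without the length trend 2 COMPASS genes rose and 3 fell. Dpy30, a small core subunit, rose most, from 59.4 ± 10.2 to 197 ± 58.2 CPM (SD, n = 3; log2 change 1.73 ± 0.24). The scaffold gene Hcfc1 fell from 211 ± 6.66 to 142 ± 17.5 CPM, and Ncoa6, a subunit of the KMT2C and KMT2D complexes, from 60.5 ± 1.78 to 44.0 ± 6.64 CPM. Pagr1a, a subunit of the same complexes, rose from 38.5 ± 4.13 to 52.4 ± 1.63 CPM. Core subunits Wdr5 and Rbbp5 did not pass, with log2 changes of 0.05 and -0.36. With the replicate block Rbbp5 passed at -0.36 (adjusted p = 0.000939 in edgeR, 0.000939 to 0.224 over 13 alternatives). Without the length trend Hcfc1, Ncoa6 and Pagr1a no longer passed, and Dpy30 still did.

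Kmt2e (MLL5) and Setd5 encode SET domain proteins for which no firm methyltransferase activity is established. The span of Kmt2e overlaps the gene Srpk2. Kmt2e fell from 148 ± 12.9 to 95.6 ± 10.3 CPM (SD, n = 3; log2 change -0.63 ± 0.14), with no overlap between groups. Setd5 passed narrowly, at -0.36 ± 0.13 (adjusted p = 0.0423, edgeR; 0.000161 to 0.439 over 13 alternatives). Its call was lost without the filter on low counts, without the length trend and when any one of Vehicle replicates 1, 2 and 3 or TCM replicates 2 and 3 was left out.

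Setd2, the main writer of H3K36 trimethylation behind elongating polymerase, showed the largest fall of the 34. Setd2 (chromosome 9, 110532597 to 110618633) had 131, 129 and 110 CPM in Vehicle and 52.8, 38.4 and 44.6 CPM in TCM. The highest TCM value was less than the lowest Vehicle value by a wide gap, and the log2 change was -1.44 ± 0.15 (SE; adjusted p = 7.70e-05, edgeR), a 2.72-fold fall. Nsd1, which dimethylates H3K36, fell from 199 ± 10.9 to 120 ± 6.05 CPM (SD, n = 3), a log2 change of -0.74 ± 0.13. Without the length trend Setd2 still fell, by 1.12, while Nsd1 no longer passed at -0.22 (adjusted p = 0.111 in edgeR, 7.83e-11 to 0.111 over 13 alternatives).

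Genes of PRC2, the complex that methylates H3K27, moved in opposite directions. PRC2 holds a catalytic subunit, EZH2 in dividing cells and EZH1 more in resting ones, with SUZ12 as scaffold and EED as reader of the mark. Eed and Ezh2 rose, Ezh1 fell and Suz12 did not pass. Eed (chromosome 7, 89954654 to 89980983) had 104, 78.6 and 91.2 CPM in Vehicle and 216, 238 and 217 CPM in TCM, and its log2 change of 1.29 ± 0.15 (SE; adjusted p = 0.000117, edgeR) was the largest rise of the 34. The lowest TCM library held more than 2-fold the highest Vehicle library. The span of Eed overlaps that of the gene E230029C05Rik. Overlap of their exons was not examined, and no strand setting is stated.

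Ezh2 (chromosome 6, 47530139 to 47595341) had 46.6, 41.7 and 40.6 CPM in Vehicle and 68.5, 58.7 and 62.2 CPM in TCM, a log2 change of 0.56 ± 0.12 (adjusted p = 0.00370, edgeR; 2.85e-07 to 0.182 over 13 alternatives). Its call was lost with library totals alone as scaling, at 0.35, a setting that moved the median of all genes by -0.21 on the log2 scale. Ezh1 (chromosome 11, 101191115 to 101226463) had 25.3, 25.4 and 25.0 CPM in Vehicle and 13.7, 13.9 and 14.8 CPM in TCM. Replicates of Ezh1 were nearly identical within each group, and it fell by 0.84 ± 0.10 on the log2 scale (adjusted p = 0.000189, edgeR). Suz12 (chromosome 11, 79993106 to 80034123) had 192, 133 and 140 CPM in Vehicle and 255, 213 and 183 CPM in TCM. Vehicle replicate 1 lay above TCM replicate 3, and the log2 change of 0.49 ± 0.19 had an adjusted p of 0.0513 in edgeR. Suz12 passed with the replicate block (0.49, adjusted p = 1.54e-05 in edgeR; 1.70e-10 to 0.378 over 13 alternatives), without the length trend (0.65), in DESeq2 (0.52) and without Vehicle replicate 1 (0.67) or TCM replicate 3 (0.61).

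Upstream windows of 3 genes are shown because Setd2 had the largest fall, Ezh1 and Suz12 belong to PRC2, and each has a single start in RefSeq (GRCm38.p6) with no annotated exon in the 250 bases before it. They are chr11:79992856-79993105 on the plus strand for Suz12, chr11:101226464-101226713 on the minus strand for Ezh1 and chr9:110532347-110532596 on the plus strand for Setd2. Capitals mark 2 motifs on either strand: CHR, the cell cycle element TTTGAA, which reads TTCAAA on the other strand, and the NRF1 motif, which is the run of capitals in Ezh1 with any base after its first A.
Suz12: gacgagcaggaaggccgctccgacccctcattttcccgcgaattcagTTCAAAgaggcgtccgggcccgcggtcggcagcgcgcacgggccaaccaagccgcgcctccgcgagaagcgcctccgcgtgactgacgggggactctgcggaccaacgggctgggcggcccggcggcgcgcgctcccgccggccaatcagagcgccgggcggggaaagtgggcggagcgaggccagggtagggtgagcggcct
Ezh1: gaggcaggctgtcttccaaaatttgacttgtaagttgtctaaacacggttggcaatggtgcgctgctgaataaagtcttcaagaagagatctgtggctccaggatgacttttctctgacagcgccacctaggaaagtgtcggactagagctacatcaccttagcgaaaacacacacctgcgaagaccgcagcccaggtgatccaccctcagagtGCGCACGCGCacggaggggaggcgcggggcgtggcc
Setd2: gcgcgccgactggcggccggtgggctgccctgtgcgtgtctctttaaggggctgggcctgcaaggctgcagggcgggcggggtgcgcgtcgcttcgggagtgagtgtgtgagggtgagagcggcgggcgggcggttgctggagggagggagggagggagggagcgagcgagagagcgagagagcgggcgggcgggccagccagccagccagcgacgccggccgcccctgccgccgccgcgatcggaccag
Suz12 holds 1 CHR match, 198 to 203 bases before its start, Ezh1 holds 1 NRF1 match, 27 to 36 bases before its start, and Setd2 holds neither. Over the 27 of 34 enzymes with a window before their most upstream start, CHR matched in 4 (Dnmt1, Dnmt3b, Eed and Suz12) and NRF1 in 5 (Ehmt1, Ezh1, Ezh2, Suv39h1 and Suv39h2). Over 9770 windows of tested genes the shares were 10.6% and 8.57%. TTTNNCGC, a loose E2F motif, matched in 1 of 27 (Suz12; 7.32% of all windows), the E-box CACGTG in 1 (Ehmt2; 8.53%), and the hypoxia element ACGTG or GCGTG, which the E-box contains, in 12 (56.9%). The windows of the enzymes held a median of 21 CpG dinucleotides, against 16 over all windows. Several of the 27 windows hold annotated exon bases, with all 250 in Eed and Setdb1, 209 in Setd1a, 207 in Kdm2b, 174 in Tet3 and 125 in Ezh2. The CHR matches of Eed thus lie in annotated exon. All these matches describe letters only, and a gene can use other starts.

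PRC2's accessory subunits also split. Of 7 measured genes 3 rose, 2 fell and 2 did not pass, where 28.8% of all genes rose and 30% fell. Phf19, which brings PRC2 to H3K36-methylated chromatin, rose from 6.33 ± 0.662 to 19.0 ± 3.14 CPM (SD, n = 3; log2 change 1.59 ± 0.15), Aebp2 from 324 ± 41.7 to 607 ± 82.7 CPM and the histone-binding subunit gene Rbbp4 from 189 ± 11.0 to 266 ± 11.5 CPM. Jarid2 and Phf1 fell, by 0.93 ± 0.16 and 1.12 ± 0.20 on the log2 scale. Mtf2 and Rbbp7 did not pass.

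PRC1 binds the mark that PRC2 writes and ubiquitinates histone H2A. Among its 18 subunit genes 8 rose, 4 fell and 6 did not pass (median -0.10), where 28.8% of all genes rose and 30% fell. Without the length trend 7 of the subunit genes rose and 2 fell. Pcgf5 rose from 35.8 ± 4.53 to 113 ± 7.07 CPM (SD, n = 3; log2 change 1.65 ± 0.14), Cbx2 from 6.18 ± 0.764 to 15.1 ± 2.18 CPM, Yaf2 by 0.89 ± 0.12 and Cbx6 by 0.80 ± 0.13 on the log2 scale. The 7 of 10 proliferation markers that rose did so in the same TCM libraries as Ezh2, Eed, Phf19 and Cbx2. The part of proliferation in these changes was not tested.

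**Figure D4:**
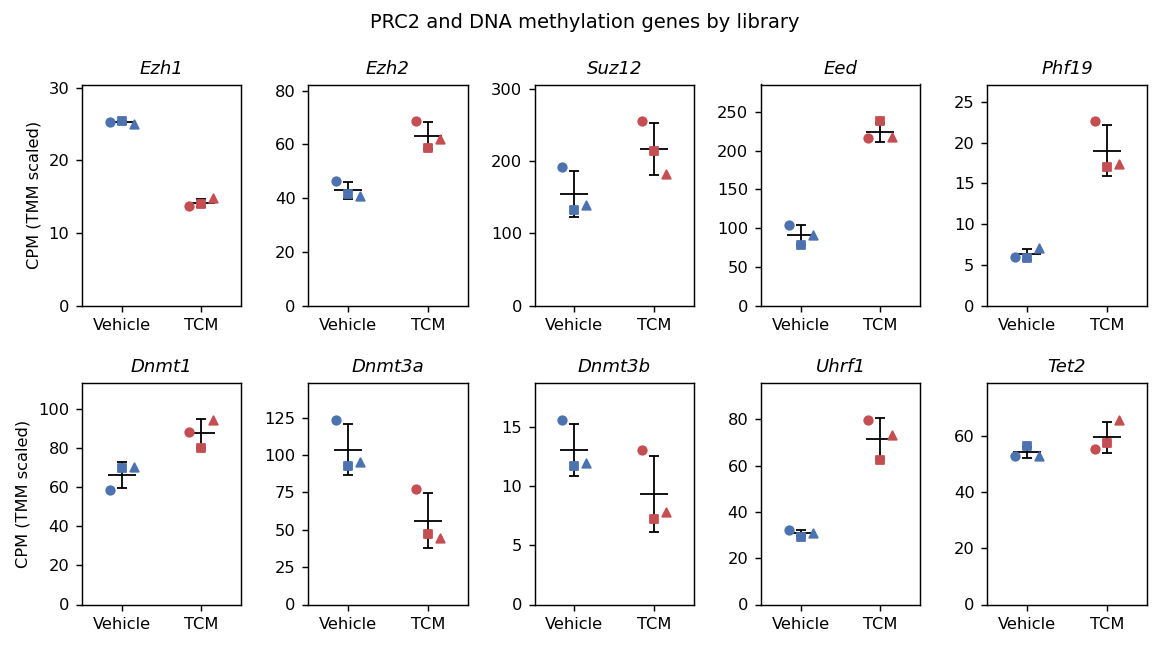
CPM scaled by TMM (y axis, from 0) in the Vehicle and TCM libraries for 10 genes, with 1 point per library and the mean ± SD of 3 libraries as bars. Ezh1 is lower and Ezh2, Eed, Phf19, Dnmt1 and Uhrf1 are higher in every TCM library, while Suz12, Dnmt3b and Tet2 overlap between groups.

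Ratios of paired enzymes within each library restate the changes of genes already called above and are no separate evidence. Exon lengths differ within the pairs (Ezh2 2802, Ezh1 6081, Kdm6b 6654, Dnmt3a 9913 and Dnmt1 6301 bases). The ratios were not recomputed without the length trend. In that fit the log2 changes were 0.52 for Ezh2, -0.59 for Ezh1, -0.30 for Kdm6b, -0.51 for Dnmt3a and 0.65 for Dnmt1. The genes of each pair thus still moved in opposite directions, though Kdm6b did not pass. The ratio of Ezh2 to Ezh1 per kb of exon was 3.99, 3.57 and 3.53 in Vehicle and 10.9, 9.13 and 9.13 in TCM. The ratio of the H3K27 demethylase gene Kdm6b to Ezh2 was 3.01, 3.51 and 3.76 in Vehicle and 1.58, 1.55 and 1.59 in TCM. For Dnmt3a to Dnmt1 it was 1.33, 0.839 and 0.859 in Vehicle and 0.554, 0.373 and 0.299 in TCM. None of the 3 ratios overlapped between groups. Each had a two-sided exact permutation p of 0.1 (0.1 adjusted over the 3), which is the smallest that 3 against 3 libraries can give.

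The H3K9 writers did not move as one. SUV39H1 and SUV39H2 trimethylate H3K9 in heterochromatin, SETDB1 silences repeats, and EHMT1 and EHMT2 (GLP and G9a) dimethylate H3K9. Suv39h2 rose, Ehmt1 and Setdb1 fell, and Suv39h1 and Ehmt2 did not pass. Suv39h2, the member with the fewest reads after Tet1, had 8.08, 6.77 and 6.51 CPM in Vehicle and 9.79, 11.2 and 12.0 CPM in TCM, a log2 change of 0.63 ± 0.14. That call was lost with library totals alone (0.40, adjusted p = 0.109 in edgeR, 4.07e-09 to 0.109 over 13 alternatives).

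Ehmt1 fell from 33.2 ± 1.999 to 20.9 ± 2.68 CPM (SD, n = 3; log2 change -0.67 ± 0.13). Its partner Ehmt2 had 136 ± 5.59 and 114 ± 25.7 CPM, with TCM replicate 1 at 142 CPM above all Vehicle libraries. Ehmt2 passed with the replicate block (-0.28, adjusted p = 0.0146 in edgeR; 0.000218 to 0.617 over 13 alternatives) and without TCM replicate 1 (-0.45). Setdb1 had 62.2, 43.1 and 45.9 CPM in Vehicle and 41.4, 27.4 and 30.5 CPM in TCM, so that replicate 1 was highest in both groups. Its call (-0.60 ± 0.19) was lost without Vehicle replicate 1 (-0.43), TCM replicate 2 (-0.48) or TCM replicate 3 (-0.54). Suv39h1 had a log2 change of -0.18 ± 0.12 and passed only among the alternatives without both replicate 1 libraries (-0.22). Suv39h2 and Setdb1 overlap the genes Dclre1c and Cers2.

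Of 9 readers and partners of H3K9 methylation 5 fell, 2 rose and 2 did not pass (median -0.58). Over all genes 30% fell and 28.8% rose. Atf7ip, the partner that stabilises SETDB1, fell from 82.0 ± 3.90 to 29.9 ± 4.43 CPM (SD, n = 3; log2 change -1.46 ± 0.14), and Morc2a and Mphosph8, which act with the silencing complex HUSH, fell by 0.93 ± 0.14 and 0.63 ± 0.13. Cbx3, which encodes the reader HP1 gamma, rose from 19.0 ± 1.49 to 37.0 ± 3.79 CPM. Dot1l, the H3K79 writer, did not pass, with 151, 148 and 152 CPM in Vehicle and 164, 124 and 130 CPM in TCM. It passed without both replicate 1 libraries (-0.25, adjusted p = 0.00797 in edgeR, 0.00797 to 0.912 over 13 alternatives).

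Other histone lysine methyltransferases numbered 17, of which 6 fell, 1 rose and 10 did not pass (median -0.15), where 30% of all genes fell and 28.8% rose. Without the length trend 6 of the 17 fell and 4 rose. Kmt5b, a writer of H4K20 methylation, fell by 1.36 on the log2 scale, Ash1l, an H3K36 writer, by 1.17, Setdb2 by 1.14 and Prdm2 by 0.96. Kmt5c, the partner of Kmt5b, was the 1 that rose (0.89). With the replicate block Setd4 also rose, by 0.43 (adjusted p = 0.00418 in edgeR, 0.000578 to 0.419 over 13 alternatives). Nsd2 fell with the block, by 0.27 (adjusted p = 0.0133 in edgeR, 0.00833 to 0.43 over 13 alternatives), but rose by 0.29 without the length trend.

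Of 8 histone demethylase genes Kdm2a, Kdm4a, Kdm5a and Kdm6b fell and 4 did not pass, where 30% of all genes fell, and 43.9% of those in the longest group. Without the length trend 2 rose and 2 fell. Kdm6b (chromosome 11, 69398508 to 69413675), which encodes the inducible H3K27 demethylase JMJD3, had 333, 348 and 363 CPM in Vehicle and 257, 216 and 234 CPM in TCM. The groups did not overlap, and the log2 change was -0.56 ± 0.14 (SE; adjusted p = 0.00758, edgeR; 2.09e-07 to 0.0586 over 13 alternatives). It no longer passed without the length trend (-0.30) or without TCM replicate 2 (-0.50). Kdm4a, which removes H3K9 and H3K36 trimethylation, fell from 65.2 ± 2.28 to 35.99 ± 2.76 CPM (SD, n = 3; log2 change -0.86 ± 0.11), and its relative Kdm4c had -0.32 ± 0.22 and passed only with the replicate block (-0.31, adjusted p = 0.00680 in edgeR, 0.00680 to 0.802 over 13 alternatives).

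Kdm5a and Kdm5b both erase H3K4 trimethylation. Kdm5a fell from 92.9 ± 16.7 to 55.4 ± 7.16 CPM (SD, n = 3), while Kdm5b had 28.96 ± 2.32 and 33.7 ± 2.89 CPM and did not pass. Without the length trend Kdm5b rose by 0.58 (adjusted p = 0.000522 in edgeR, 5.77e-08 to 0.97 over 13 alternatives). The H3K36 demethylase genes Kdm2a and Kdm2b had log2 changes of -0.57 ± 0.18 and 0.19 ± 0.13. Kdm2a lost its call without the length trend (-0.20) and without Vehicle replicate 1, TCM replicate 2 or TCM replicate 3 (-0.46 to -0.49), and Kdm2b rose without the length trend (0.42). Kdm1a (LSD1), a demethylase of mono- and dimethylated H3K4, did not pass at -0.21 ± 0.15 and passed at -0.24 without both replicate 1 libraries. Kdm1a, Kdm2b and Kdm5a overlap other genes (Luzp1, Rnf34 with A930024E05Rik, and Ccdc77).

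Of 15 other demethylase genes 7 fell, 0 rose and 8 did not pass (median -0.48), where 30% of all genes fell and 28.8% rose. Kdm3b fell from 71.4 ± 4.52 to 34.1 ± 4.39 CPM (SD, n = 3; log2 change -1.06 ± 0.13). Kdm1b (LSD2) and Jmjd1c fell by 0.66 ± 0.12 and 0.65 ± 0.13, and Riox1 by 0.62 ± 0.16. Of the 7 that fell, Jmjd1c, Phf8 and Kdm7a no longer passed without the length trend. Jmjd6 newly passed there, at -0.33 (adjusted p = 0.0248, edgeR), so that 5 of the 15 fell (28.8% of all genes).

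The DNA methyltransferases diverged. Dnmt1 (chromosome 9, 20907209 to 20959888) had 58.8, 70.1 and 70.4 CPM in Vehicle and 88.5, 80.0 and 94.5 CPM in TCM. Every TCM library lay above every Vehicle library, and it rose by 0.40 ± 0.13 on the log2 scale (adjusted p = 0.0267, edgeR; 2.30e-10 to 0.372 over 13 alternatives). The call was lost with library totals alone (0.19) and without Vehicle replicate 1, 2 or 3 or TCM replicate 3 (0.32 to 0.44).

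Dnmt3a (chromosome 12, 3806007 to 3914443) had 123, 92.6 and 95.2 CPM in Vehicle and 77.2, 46.9 and 44.4 CPM in TCM. Replicate 1 was the highest in both groups, the groups did not overlap, and the log2 change was -0.88 ± 0.22 (adjusted p = 0.00853, edgeR). Dnmt3a overlaps the gene Gm10485. Dnmt3b (chromosome 2, 153649450 to 153687730) had 15.6, 11.7 and 11.9 CPM in Vehicle and 13.1, 7.20 and 7.87 CPM in TCM, and TCM replicate 1 lay within the Vehicle range. Its log2 change of -0.47 ± 0.23 did not pass (adjusted p = 0.103, edgeR). It passed with the replicate block at -0.50 (adjusted p = 0.000135 in edgeR, 0.000135 to 0.32 over 13 alternatives) and without TCM replicate 1 at -0.79.

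Among 16 partners and readers of DNA methylation 7 rose, 4 fell and 5 did not pass (median -0.01), where 28.8% of all genes rose and 30% fell. Uhrf1, which guides DNMT1 to newly copied DNA, rose from 30.8 ± 1.38 to 71.6 ± 8.75 CPM (SD, n = 3; log2 change 1.22 ± 0.13). Zbtb38, a reader of methylated DNA, rose from 14.4 ± 1.24 to 25.0 ± 1.92 CPM, and Dnmt3l from 0.360 to 1.29 CPM, both low levels. The remodeller gene Hells rose by 0.76. Mbd1, which encodes a methyl-CpG binding protein, fell from 29.5 ± 1.45 to 20.03 ± 1.81 CPM. The rises of Dnmt1, Uhrf1 and Hells stand beside those of 7 of 10 proliferation markers, with Mki67, Mcm2 and Mcm5 not among the 7. The part of proliferation in them was not tested.

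None of the TET genes passed. Tet2 (chromosome 3, 133463679 to 133545139) had 53.0, 56.6 and 53.0 CPM in Vehicle and 55.3, 57.6 and 65.7 CPM in TCM. Its log2 change of 0.14 ± 0.12 did not pass (adjusted p = 0.341, edgeR). Tet3 (chromosome 6, 83362373 to 83459084) had 160, 117 and 125 CPM in Vehicle and 137, 84.7 and 83.6 CPM in TCM, and TCM replicate 1 lay inside the Vehicle range. Its log2 change was -0.40 ± 0.22 (adjusted p = 0.144, edgeR), and it passed with the replicate block at -0.42 (adjusted p = 0.000192 in edgeR, 6.73e-06 to 0.816 over 13 alternatives) and without TCM replicate 1 at -0.67. Tet3 overlaps B230319C09Rik. Tet1 (chromosome 10, 62804570 to 62908996) had 48 to 74 counts per library, 2.73 to 2.87 CPM in Vehicle and 2.92 to 3.14 CPM in TCM, a log2 change of 0.10 ± 0.15. Tet1 and Tet2 rose without the length trend, by 0.63 (adjusted p = 0.00932 in edgeR, 0.00201 to 0.728 over 13 alternatives) and 0.50 (adjusted p = 0.0104 in edgeR, 1.92e-06 to 0.708).

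Levels of different genes were compared per kb of exon. In Vehicle, Kdm6b stood first at 52.3 ± 2.24 CPM per kb (SD, n = 3), followed by Eed at 44.2 ± 6.21, Suz12 at 35.4 ± 7.36, Ehmt2 at 33.0 ± 1.36 and Kmt2d at 32.0 ± 2.07 CPM per kb, and the last 3 differed by less than their spread. In TCM, Eed stood first at 108 ± 5.92 CPM per kb, followed by Suz12 at 49.6 ± 8.30 and Kdm6b at 35.4 ± 3.05 CPM per kb. Among DNA methyltransferases Dnmt1 and Dnmt3a both stood at 10.5 CPM per kb in Vehicle (SD 1.05 and 1.73), and in TCM at 13.9 ± 1.15 and 5.67 ± 1.84 CPM per kb. Tet3 and Tet2 had 11.4 ± 1.95 and 5.89 ± 0.229 CPM per kb in Vehicle and 8.67 ± 2.60 and 6.47 ± 0.593 CPM per kb in TCM. Tet1 was lowest of all 34 in both groups, at 0.196 and 0.211 CPM per kb.

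**Figure D5:**
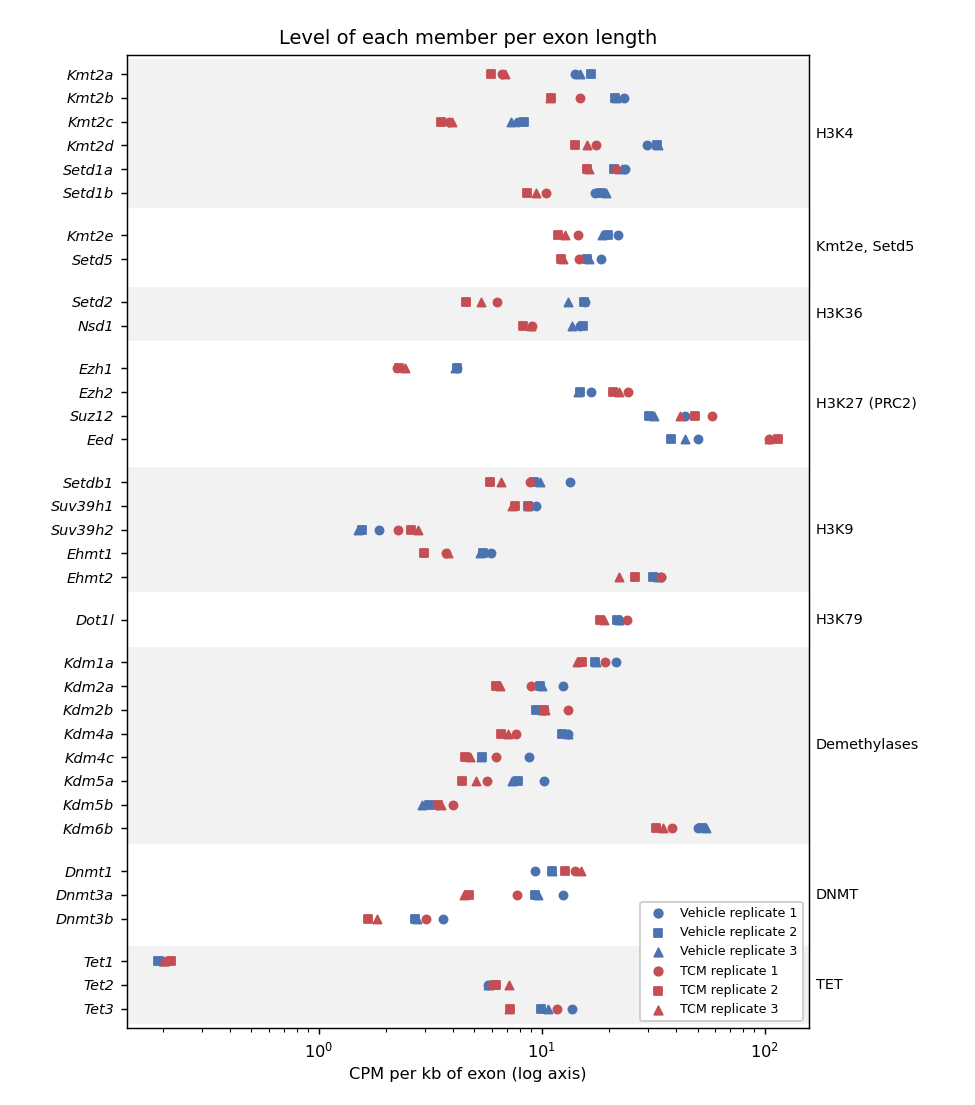
Level of each enzyme as CPM per kb of exon (x axis, log scale) in each of the 6 libraries (blue Vehicle, red TCM, marker shape by replicate), by role on the y axis. Eed, Suz12 and Kdm6b lie farthest to the right, and Tet1 lies far to the left of all the others.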

How the data were processed

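RNA sequencing of 6 splenocyte libraries was analysed. The deposited count table gives raw reads on exons for each gene symbol, as whole numbers. In the deposited normalized table the authors' values are a signal (each library's counts over a constant), which served only for the check of the headers (100% of its values above 0 gave whole reads within 0.1). The tools named per the submitters' processing notes are DESeq2 1.28.1 and STAR 2.7.2d, with build mm10. No source used here gives their roles, the counter, the annotation or the strand setting. The 92 spike-in rows held 0 counts and were left out.

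Genes were kept by filterByExpr, scaled by TMM and tested with edgeR 4.0.16 (R 4.3.3, quasi-likelihood, group as the sole term, Benjamini-Hochberg over 12423 genes). No set test was run. The standard error is the log2 change divided by the square root of F. Exon lengths are unions of GENCODE M21 basic exons (GRCm38, also called mm10). The 13 alternatives per gene were DESeq2 1.42.0, library totals, no filter, the replicate block, removal of each library's lowess trend on exon length (span 0.3) with and without the block, each library left out, and both replicate 1 libraries left out. Same-numbered libraries deviated together from their group means (r = 0.60, 0.15 and 0.36 across genes for numbers 1 to 3). Libraries 2 and 3 also correlated across numbers (0.27 and 0.42), so these values do not settle a pairing by number. The labels do not say what a number shares. The main fit and its calls therefore left pairing out, and the replicate block is an alternative only. No 2 replicates looked like one library deposited again (chi-square per gene 5.08 to 110 within groups).

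The members and lists were chosen with earlier results of these data known. Every member is named. Values in every library are given for those at least 2-fold changed and for PRC2, DNMT and TET genes, Kdm6b and Kmt2a, and for a few others chosen after their values were seen. From each other list up to 4 called genes with the smallest p are named, except 1 that is not reported here, and a few named beyond that rule (Wdr5, Rbbp5, Hells, Kmt5c and genes that lost a call) were chosen after their values were seen. The fits were tested on simulated counts.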

Additional observations from a re-analysis of the deposited data

How the results depend on the processing

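The count of enzymes that rose (4) was 1 with library totals alone, 9 without the length trend, with or without the replicate block, and 17 under the normalized table's header, where 4 fell and the median became 0.43. Over the alternatives that leave out 1 library it ran from 3 to 4, the count that fell from 13 to 21 and the median log2 change from -0.65 (without TCM replicate 1) to -0.31 (without TCM replicate 2). With the replicate block 5 rose and 22 fell (36.3% and 37% of all genes), and it ended no call. Without both replicate 1 libraries 5 rose and 24 fell (36.3% and 37.9%). Over the 29 genes found by their current symbol, a choice made after seeing the data, the median was -0.32. Of the 21 enzymes called, all 21 kept their direction and 13 also their call in all 13 alternatives, the header aside. Among those not called, the sign turned in Suv39h1 (0.02 and, with the block, 0.02), Dot1l (0.15 and 0.15) and Tet3 (0.05 and 0.03) without the length trend, and in Kdm2b (-0.01), Tet1 (-0.11) and Tet2 (-0.09) with library totals alone. The ratios of Ezh2 to Ezh1, Dnmt3a to Dnmt1 and Kdm6b to Ezh2 changed by 1.31 to 1.45, -1.56 to -1.10 and -1.21 to -1.05 on the log2 scale when 1 library was left out. Depth limits Tet1 most, with 48 to 74 counts per library, and the scaling alternatives bear most on the small rises of Ezh2, Suv39h2 and Dnmt1.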

Other observations

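Protein arginine methyltransferases methylate arginine in histones and RNA-binding proteins. Of 9 genes 2 rose, 1 fell and 6 did not pass, where 28.8% of all genes rose and 30% fell. Prmt1, which encodes the main enzyme of this family, rose from 175 ± 11.6 to 276 ± 22.8 CPM (SD, n = 3; log2 change 0.66 ± 0.14), and Prmt2 rose from 5.32 ± 0.212 to 7.34 ± 0.530 CPM. Prmt9 fell by 0.48 ± 0.17. Prmt5 and its partner Wdr77 did not pass, at -0.13 ± 0.11 and -0.19 ± 0.12.

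Methyltransferases draw on S-adenosylmethionine, and the JmjC and TET enzymes on 2-oxoglutarate. Of 15 genes of these supplies 6 fell, 2 rose and 7 did not pass (median log2 change -0.29). Over all genes 30% fell and 28.8% rose. Mat2a, which encodes the enzyme that makes S-adenosylmethionine, fell from 467 ± 13.1 to 289 ± 9.20 CPM (SD, n = 3; log2 change -0.69 ± 0.14), and Mtrr, which encodes an enzyme that keeps methionine synthase active, fell by 0.63 ± 0.11. Ahcy, which clears the by-product S-adenosylhomocysteine, rose from 19.6 ± 0.846 to 38.7 ± 3.03 CPM. The isocitrate dehydrogenase genes went apart, with Idh2 (mitochondrial) higher by 1.02 ± 0.13 and Idh1 (cytosolic) lower by 0.60. Mat2a and Idh1 were chosen after their values were seen. All directions follow the count table's header.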
